A study of Chlorocebus sabaeus with 4 samples.

Results

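The genes described here are 51 genes of the cell division cycle, out of 19775 genes measured on arrays of monkey corpus luteum. They were chosen by name as a list, but with earlier results of these data known. All 51 were found among the probe sets that name a single gene symbol, and the probe set whose mean over the 4 samples was highest stood for the gene. By textbook role, 15 members act in DNA replication, 31 act in mitosis, and 5 (MKI67, CCNE2, CCNA2, FOXM1 and MELK) span phases and were put in neither class.

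The tissue was frozen corpus luteum of 2 adult female vervet monkeys (Chlorocebus sabaeus), both 16 years old. Feeding was ad libitum for monkey 1030 and calorie-restricted for monkey 1031. Either animal gave a sample 1 and a sample 2, so that weight change could be followed within the animal. Each diet is thus a single animal, which limits it as a model of that diet. Neither the order of collection nor the stage of the luteal phase is in the labels, so every change below is sample 2 minus sample 1, with no order in time implied. The values are log2 signals of human-designed probe sets, 1 array per sample.

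A dividing cell copies its DNA in S phase and separates the copies in mitosis. Before S phase the MCM helicase is loaded on DNA with the help of CDC6, and during it the clamp PCNA holds polymerases on the template while RRM1, RRM2, TYMS and TK1 supply nucleotides. Mitosis is driven by CDK1 with B-type cyclins, checked by BUB1, TTK and MAD2L1 at the kinetochores, and ended by the anaphase-promoting complex and by the machinery of cytokinesis. Many mitotic transcripts accumulate late in the cycle and are low in resting cells, whereas MCM proteins are abundant and long-lived. In the primate corpus luteum, dividing cells are mainly found among vascular and stromal cells as the gland forms, and luteinised granulosa cells largely leave the cycle.

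A gene was called higher or lower within an animal at a 2-fold difference, or 1.00 on the log2 scale, which is a rule of size with no test behind it, since each condition has 1 array. Background shares were counted over the 9888 genes with a mean log2 signal at or above 5.26, the median over all genes. Of the members, 33 passed this filter, namely 12 replication genes, 17 mitotic genes and 4 others, and members under it are counted but lie in the lower part of the signal range. KIF11 (mean log2 signal 2.29) and KIF23 (2.40), both mitotic motors, lay lowest, so little can be read from them.

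One array stood apart, that of sample 2 under ad libitum feeding: 912 to 1031 genes differed by 2-fold between it and any other array, against 122 to 333 among the other 3. The changes of the ad libitum animal cannot be had without it. Those of the calorie restriction animal are differences of 2 other arrays, although normalisation, the choice of probe set and the level filter drew on all 4. Luteal steroidogenic markers, such as STAR and CYP11A1, were set beside the tissue label. Over the 10 measured, the mean log2 signal was 10.8 (sample 1) and 7.44 (sample 2) in the ad libitum animal. In the calorie restriction animal it was 9.30 and 10.02. In the ad libitum sample 2, 9 of the 10 (90%) were at least 2-fold lower, against 6.58% of all genes, and 0 were higher. Values there ran from 4.41 (CYP19A1) to 10.77 (FDX1), so the markers bear out the label less well for that sample. The oocyte genes ZP4 and ZAR1 reached 8.30 and 8.12 in the ad libitum sample 2 and stayed between 4.13 and 4.68 elsewhere. The bacterial RNAs added to follow hybridisation averaged 10.58, 9.85, 10.09 and 10.54 in the same sample order. Both the luteal markers and these added RNAs therefore had the order of signs that the members show below, lower in sample 2 of the ad libitum animal and higher in that of the other. Their part in the members' changes was not tested.

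Across the members, the ad libitum sample 1 had most cell cycle RNA and the calorie restriction sample 1 least. The ad libitum sample 1 was the highest of the 4 in 39 of 51 members, and the calorie restriction sample 1 was the lowest in 49. Both held together in 37 members (72.5%), whereas 6.15% of all genes past the filter had that order. The exceptions at the low end were CENPF, a kinetochore protein lowest in the calorie restriction sample 2, and FOXM1, a transcription factor of late cycle genes, lowest in the ad libitum sample 2. The chosen CENPF probe set was dim, with a mean of 3.58 under the filter. Both its other probe sets, dimmer still, were lowest in the calorie restriction sample 1. Mean log2 signal over the 51 members was 6.43 (sample 1) and 5.98 (sample 2) in the ad libitum animal, compared with 5.08 and 5.79 under calorie restriction.

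**Figure D1:**
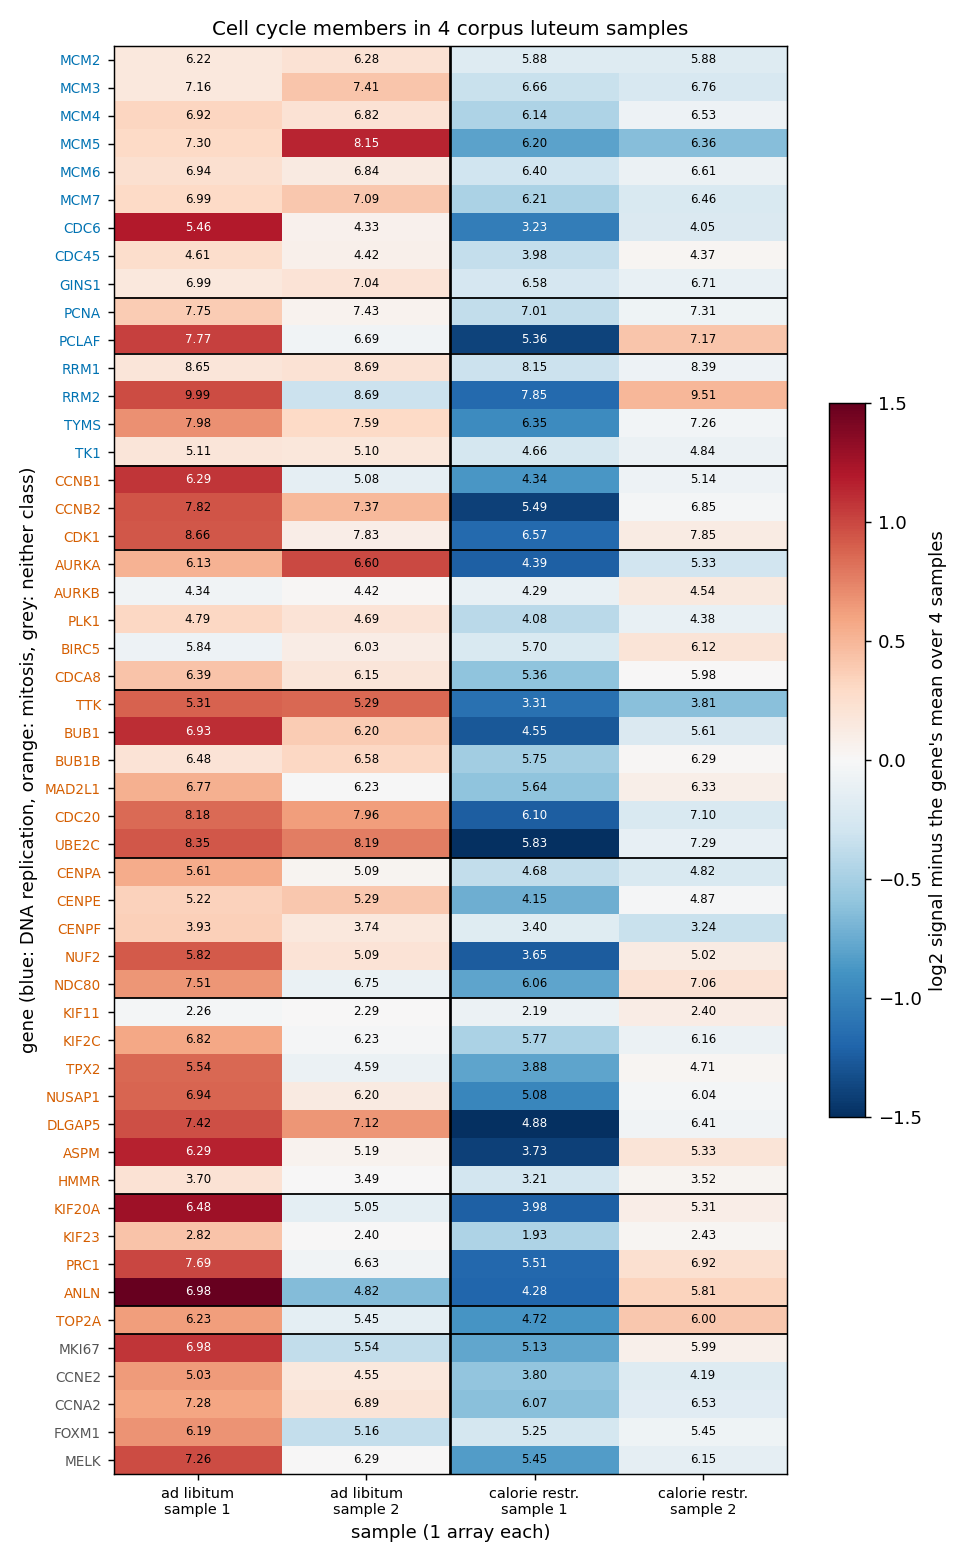
Log2 signal of the 51 members (rows, grouped by role between black lines) in the 4 samples (columns, 1 array each), printed in each cell and coloured by the difference from the gene's mean over the 4 samples. The column of the calorie restriction sample 1 is blue in nearly all rows, being the lowest of the 4 in 49 of 51 members. In the MCM rows the difference between the animals' means is larger than the change within either animal. Within animals, the largest MCM change is that of MCM5 under ad libitum feeding.

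In the ad libitum animal, 10 of 51 members (19.6%) were at least 2-fold lower in sample 2, against 6.58% of all genes, and 0 members were 2-fold higher, against 2.67%. Those lower were 3 replication genes (CDC6, PCLAF and RRM2), 5 mitotic genes (CCNB1, ASPM, KIF20A, PRC1 and ANLN) and 2 of neither class (MKI67 and FOXM1). Among members past the filter, 6 of 33 were lower. The median change of all members was -0.39, and 39 of 51 changes were negative, beside a median of -0.013 over all genes.

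In the calorie restriction animal, 15 of 51 members (29.4%) were at least 2-fold higher in sample 2, against 0.496% of all genes, and 0 were 2-fold lower, against 0.738%. The genes that were higher were 2 replication genes, PCLAF and RRM2, and 13 mitotic genes: CCNB2, CDK1, BUB1, CDC20, UBE2C, NUF2, NDC80, DLGAP5, ASPM, KIF20A, PRC1, ANLN and TOP2A. Of members past the filter, 12 of 33 were higher. The median change was 0.61, and 49 of 51 changes were positive, beside a median of -0.026 over all genes.

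The changes of the 2 animals thus had opposite signs for most members. A lower sample 2 under ad libitum feeding with a higher sample 2 under calorie restriction was found in 38 of 51 members (74.5%), against 27.3% of all genes. At 2-fold in each animal, 6 members had this pair, RRM2, PCLAF, ASPM, KIF20A, PRC1 and ANLN, or 11.8% against 0.314%. Across the 51 genes, which are not independent of each other and come from 4 arrays normalised together, Pearson's r between the changes was -0.62 and Spearman's rho -0.62, and over the 9888 genes they were -0.27 and -0.24. Turning the sample order in either animal would make the pair of signs alike.

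**Figure D2:**
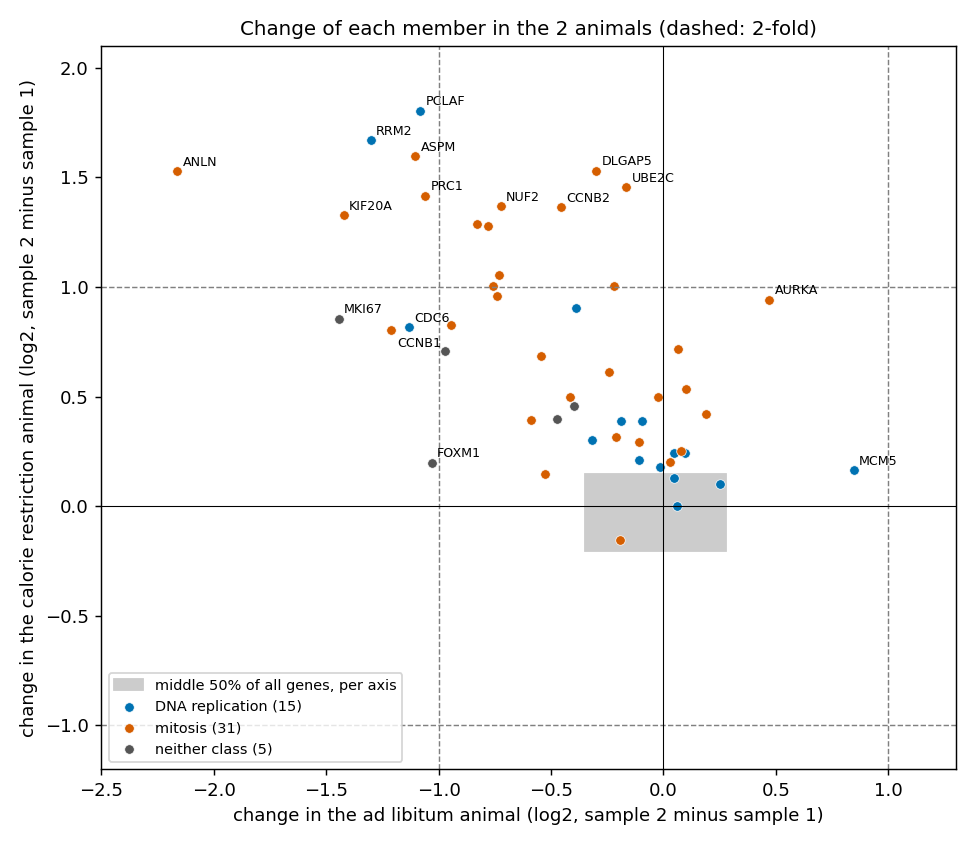
Log2 change from sample 1 to sample 2 of each member in the ad libitum animal (horizontal) and in the calorie restriction animal (vertical), with dashed lines at 2-fold and a grey box for the middle 50% of all 9888 genes on each axis. Most points lie up and left of the box, with 6 past 2-fold on both axes, and most replication genes (blue) lie nearer to the box than the mitotic genes (orange).

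Replication and mitotic genes differed in the size of these changes. In the ad libitum animal the median change was -0.094 for the 15 replication genes and -0.46 for the 31 mitotic genes, and in the calorie restriction animal it was 0.24 and 0.82. The replication median minus the mitotic median was thus 0.36 under ad libitum feeding and -0.58 under calorie restriction. In the calorie restriction animal 13 of 31 mitotic genes were 2-fold higher, compared with 2 of 15 replication genes, whereas in the ad libitum animal the shares 2-fold lower were alike, at 5 of 31 and 3 of 15. With only members past the filter the gaps were 0.52 and -0.76. When a gene's probe sets were averaged they were 0.14 and -0.37, and among the 10 replication and 26 mitotic genes with a probe set not marked by its name as able to match several transcripts (called more specific here), 0.11 and -0.26. The direction of the gap was thus the same in each of these settings, and its size in the ad libitum animal varied several-fold.

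Within replication, most subunits of the helicase differed more between the animals than between samples of an animal. MCM5, a helicase subunit, had log2 signals of 7.30 (sample 1) and 8.15 (sample 2) in the ad libitum animal, and of 6.20 and 6.36 under calorie restriction. Pairs of values below keep this order. MCM3, another subunit, had 7.16 and 7.41 in the ad libitum animal and 6.66 and 6.76 in the other. In both genes all ad libitum values lay above all calorie restriction values, and the samples of the calorie restriction animal lay close together. The other probe set of MCM5, also past the filter, gave the same order, with 6.14 and 7.09 against 5.41 and 5.55. MCM2, MCM4, MCM6 and MCM7 had changes between -0.11 and 0.097 in the ad libitum animal, and their changes in the calorie restriction animal were no larger than the 0.39 of MCM4. Of these, MCM4 and MCM7 have a further probe set past the filter, which gave -0.35 and -0.029 for MCM4 and 0.088 and -0.22 for MCM7, so that the sign of their small changes depended on the probe set. GINS1, a helicase partner, ran from 6.58 in the calorie restriction sample 1 to 7.04 in the ad libitum sample 2, with changes of 0.048 and 0.13 within the animals. MCM5 was the only replication gene with an increase of 1.5-fold or more in the ad libitum animal, at 0.85, or 1.80-fold.

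CDC6, which loads the helicase and is made anew in each cycle, moved more than the subunits it loads. Its log2 signals were 5.46 and 4.33 in the ad libitum animal and 3.23 and 4.05 in the calorie restriction animal. The change was -1.13 (2.19-fold lower) in the former and 0.82 (1.76-fold higher) in the latter, with all ad libitum values above the others. Its mean of 4.27 lies under the filter, and its other probe set gave -0.40 and 0.39. CDC45, a further helicase partner under the filter, changed by -0.19 and 0.39.

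At the replication fork, PCNA and its partner PCLAF parted. PCNA had 7.75 and 7.43 in the ad libitum animal and 7.01 and 7.31 in the calorie restriction animal, a change of -0.32 and 0.30. PCLAF, which binds PCNA, had 7.77 and 6.69 in the former and 5.36 and 7.17 in the latter. It was thus 2.12-fold lower (-1.08) in the ad libitum sample 2 and 3.49-fold higher (1.80) in the calorie restriction sample 2, the largest increase of all 51 members, and the ranges of the diets overlapped. Its other probe set, a dim one of less specific design with a mean of 3.89, gave 0.73 and 0.27.

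A contrast of this kind was also seen between the chosen probe sets of ribonucleotide reductase, the enzyme that makes deoxyribonucleotides from a large subunit, RRM1, and a small subunit, RRM2. RRM1 had 8.65 and 8.69 in the ad libitum animal and 8.15 and 8.39 in the calorie restriction animal. RRM2 had 9.99 and 8.69 in the ad libitum animal and 7.85 and 9.51 in the other. By these probe sets the large subunit changed by 0.046 and 0.24, while the small subunit was 2.47-fold lower (-1.30) and 3.18-fold higher (1.67). The other RRM1 probe set, also past the filter, gave -0.58 and 0.15, a smaller contrast in the ad libitum animal. A further RRM2 probe set lay near the bottom of the range, with a mean of 2.56, and gave -0.047 and 0.52. TYMS, which makes thymidylate, lay between these patterns with 7.98 and 7.59 against 6.35 and 7.26, and its further probe set past the filter gave -0.27 and 0.68. TK1, thymidine kinase, lay under the filter, and its probe sets differed: the chosen one (mean 4.93) changed by -0.013 and 0.18, and the other (mean 4.73) by -1.22 and 0.50.

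Among the drivers of mitosis, CDK1, the kinase of mitotic entry, had 8.66 and 7.83 in the ad libitum animal and 6.57 and 7.85 in the calorie restriction animal. Its cyclin partner CCNB2 had 7.82 and 7.37 in the former and 5.49 and 6.85 in the latter. Both were 2-fold higher in the calorie restriction sample 2, CDK1 by 2.44-fold (1.29) and CCNB2 by 2.57-fold (1.36), and neither reached 2-fold in the ad libitum animal. The second-brightest CDK1 probe set, past the filter and like the chosen one of less specific design, gave -0.56 and 1.27. The remaining CDK1 probe sets, both under the filter, gave -0.019 and 0.42 (mean 3.36), and -1.12 and 0.70 (mean 2.86). Averaged over all its probe sets, the CDK1 change in the calorie restriction animal was 0.92, short of 2-fold. The other CCNB2 probe sets, both under the filter, did not follow the chosen one. They gave 0.30 and 0.25 (mean 4.93), and 0.29 and -0.16 (mean 3.57). CCNB1, the other B-type cyclin, had 6.29 and 5.08 against 4.34 and 5.14, with a mean of 5.21 just under the filter. It was thus 2.31-fold lower in the ad libitum and 1.74-fold higher in the calorie restriction animal. Its other probe set, with a mean of 2.61, gave -0.062 and 0.31.

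The mitotic kinases and the chromosomal passenger complex, which corrects chromosome attachment, changed least among mitotic roles in the ad libitum animal, with a median of 0.080. CDCA8, a passenger subunit, had 6.39 and 6.15 in the ad libitum animal and 5.36 and 5.98 in the other. BIRC5, or survivin, of the same complex, had 5.84 and 6.03 against 5.70 and 6.12. By the chosen probe sets neither was 2-fold apart in either animal, and the BIRC5 ranges of the diets overlapped whereas those of CDCA8 did not. The 3 other BIRC5 probe sets, all under the filter, had the opposite sign in the ad libitum animal, with changes from -1.19 to -0.15, and 0.13 to 0.54 in the calorie restriction animal, so no direction can be given for BIRC5 in the former. AURKA, the spindle pole kinase, had 6.13 and 6.60 against 4.39 and 5.33, the largest positive change of a mitotic gene in the ad libitum animal (0.47). The kinases AURKB and PLK1 lay under the filter and changed by no more than 0.29 in size.

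In the spindle checkpoint and the anaphase-promoting complex, 3 of 6 genes were 2-fold higher in the calorie restriction sample 2 and 0 were 2-fold apart in the ad libitum animal. UBE2C, the ubiquitin-conjugating enzyme of that complex, had 8.35 and 8.19 in the ad libitum animal and 5.83 and 7.29 in the calorie restriction animal. CDC20, its activator, had 8.18 and 7.96 in the former and 6.10 and 7.10 in the latter. For both genes the ad libitum samples lay close together and above both calorie restriction samples, and the change in the calorie restriction animal was 2.74-fold (1.46) and 2.01-fold (1.01). BUB1, a checkpoint kinase, had 6.93 and 6.20 against 4.55 and 5.61, which is 2.08-fold higher in the calorie restriction sample 2. Averaged over all its probe sets, the BUB1 change in the calorie restriction animal was 0.26. TTK, another checkpoint kinase under the filter, had 5.31 and 5.29 in the ad libitum animal and 3.31 and 3.81 in the other. BUB1B and MAD2L1, also of the checkpoint, changed by 0.54 and 0.69 in the calorie restriction animal and by 0.10 and -0.54 in the ad libitum animal, where BUB1 changed by -0.73.

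At the kinetochore, where spindle fibres attach, NDC80 had 7.51 and 6.75 in the ad libitum animal and 6.06 and 7.06 in the calorie restriction animal. NUF2, its partner in the same complex, had 5.82 and 5.09 against 3.65 and 5.02. These partners changed alike, by -0.76 and -0.72 in the ad libitum animal and by 1.00 and 1.37 in the calorie restriction animal. CENPA, the centromeric histone, had 5.61 and 5.09 against 4.68 and 4.82. CENPE and CENPF were not 2-fold apart in either animal, and of this role only NDC80 passed the filter.

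Of the spindle proteins, DLGAP5, which stabilises spindle fibres, had 7.42 and 7.12 in the ad libitum animal and 4.88 and 6.41 in the calorie restriction animal. KIF2C, which shortens microtubules, had 6.82 and 6.23 against 5.77 and 6.16. ASPM, a spindle pole protein, had 6.29 and 5.19 against 3.73 and 5.33. DLGAP5 was 2.89-fold higher in the calorie restriction sample 2 and ASPM 3.03-fold, whereas KIF2C was 1.31-fold higher. ASPM was also 2.15-fold lower in the ad libitum sample 2, but its brightest probe set is of less specific design, and the brightest one of more specific design (mean 3.26) gave -0.061 and -0.20. NUSAP1 and TPX2, which bundle or nucleate microtubules, changed by -0.74 and -0.94 in the ad libitum animal and by 0.96 and 0.82 in the other. By the chosen probe sets these changes were short of 2-fold. The other NUSAP1 probe set, with a mean of 4.63, gave -1.13 and 0.54.

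The central spindle and cytokinesis genes had the medians farthest from 0 of any role, -1.24 under ad libitum feeding and 1.37 under calorie restriction. ANLN, or anillin, which organises the contractile ring, had 6.98 and 4.82 in the ad libitum animal and 4.28 and 5.81 in the calorie restriction animal. PRC1, which crosslinks central spindle microtubules, had 7.69 and 6.63 against 5.51 and 6.92. KIF20A, a motor of the same structure, had 6.48 and 5.05 against 3.98 and 5.31. ANLN was 4.48-fold lower in the ad libitum animal, the largest decrease of the 51, and 2.89-fold higher in the other. In these 3 genes the diets' ranges overlapped, and the calorie restriction sample 2 exceeded the ad libitum sample 2. The other ANLN probe set, with a mean of 3.49, gave -2.396 and 1.29.

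TOP2A, the topoisomerase that untangles sister chromatids, had 6.23 and 5.45 in the ad libitum animal and 4.72 and 5.998 in the calorie restriction animal. It was 2.43-fold higher in the calorie restriction sample 2, and a second probe set, with a mean of 4.84, gave -1.70 and 1.47. Of the members of neither class, MKI67, the Ki-67 antigen used to count dividing cells, had 6.98 and 5.54 against 5.13 and 5.99. It was 2.72-fold lower in the ad libitum sample 2 and 1.81-fold higher in the calorie restriction sample 2, although its 3 dimmer probe sets, all under the filter, gave changes between -0.38 and 0.080. FOXM1 had 6.19 and 5.16 against 5.25 and 5.45, and was 2.04-fold lower in the ad libitum animal. CCNA2, the cyclin of S phase and mitotic entry, had 7.28 and 6.89 against 6.07 and 6.53, and its other probe set, also past the filter, gave larger changes of -1.08 and 0.79. The kinase MELK had 7.26 and 6.29 against 5.45 and 6.15.

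**Figure D3:**
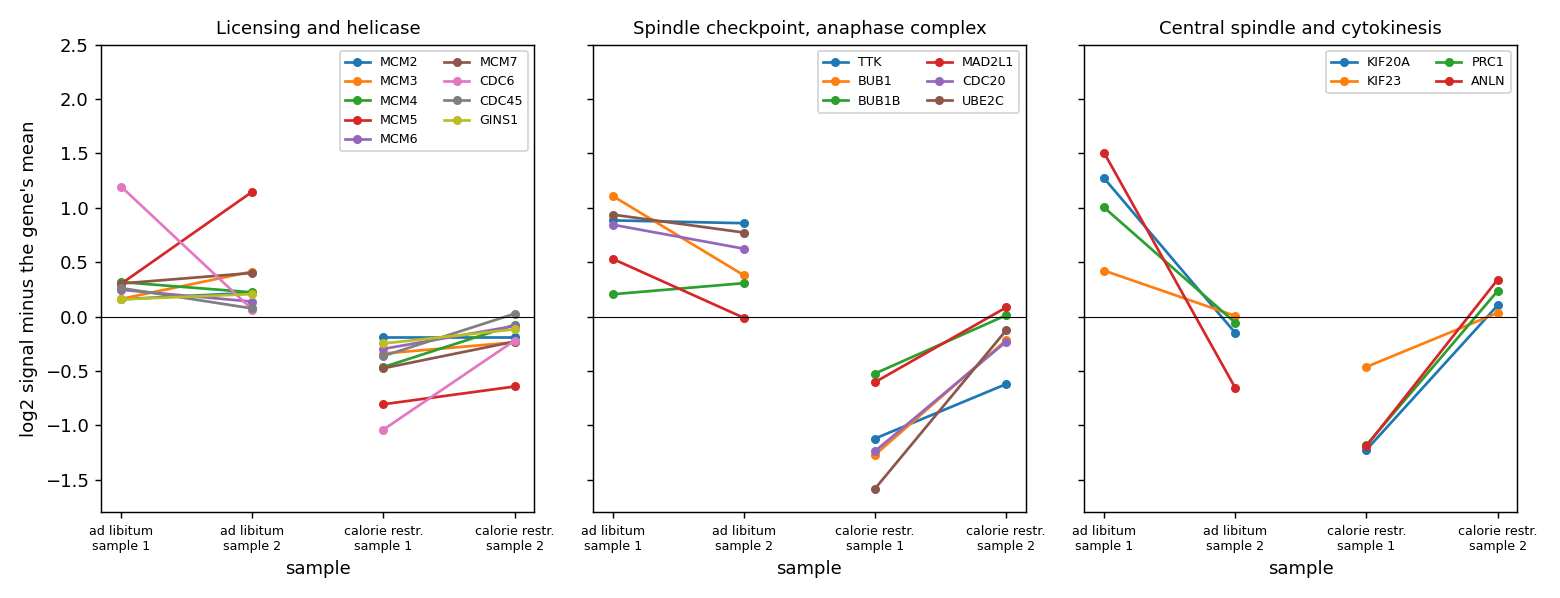
Log2 signal minus the gene's mean over the 4 samples for the helicase and its loading factors, the spindle checkpoint with the anaphase-promoting complex, and the central spindle with cytokinesis genes, each line joining sample 1 and sample 2 of an animal. Lines of the first panel are mostly flat and separated by animal, those of the second all slope up in the calorie restriction animal and differ in the ad libitum animal (BUB1 at -0.73, TTK at -0.026), and those of the third slope in opposite directions in the 2 animals, as with ANLN at -2.16 and 1.53.

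The question of how the animals differed was also asked for each sample number alone. In sample 1, all 51 members were lower in the calorie restriction animal, where 50.9% of all genes were, and 31 of them were at least 2-fold lower, where 2.02% of all genes were. The median difference was -0.74 for replication and -1.65 for mitotic genes. In sample 2, 32 of 51 members were lower in the calorie restriction animal, against 50.4% of all genes, and 3, MCM5, AURKA and TTK, were 2-fold lower, against 4.3%. There the medians were -0.30 for replication and -0.073 for mitotic genes, so that replication genes were lower in 13 of 15 cases and mitotic genes in 16 of 31. These differences use the same 4 arrays as the changes within animals and are another view of them.

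**Figure D4:**
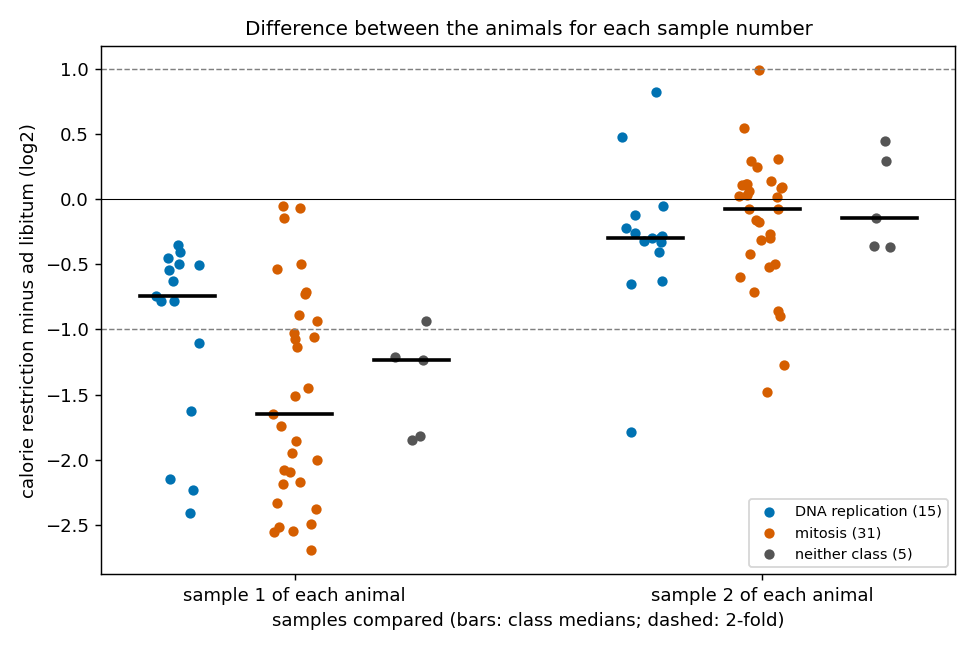
Log2 difference between the calorie restriction and the ad libitum animal for each member, in sample 1 (left) and sample 2 (right), with black bars at class medians and dashed lines at 2-fold. All points of sample 1 lie under 0, and those of sample 2 lie on both sides, with the replication median at -0.30 and the mitotic median at -0.073.

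Considering all 4 samples, both calorie restriction samples lay below both ad libitum samples in 32 of 51 members (62.7%), against 18.7% of all genes. These were the same 32 members that were lower in the calorie restriction animal in the higher-numbered sample, so the count is no separate result. The reverse, found in 16.6% of all genes, could not occur, since every member was lower in that animal in the lower-numbered sample. By class the order with the calorie restriction samples below held for 13 of 15 replication genes and 16 of 31 mitotic genes. It held for all 9 genes of licensing and helicase, though for CDC45, under the filter, by a gap of only 0.048. Among mitotic roles it held for 5 of 6 genes of the spindle checkpoint and anaphase-promoting complex and 4 of 5 of the kinetochore. It held for 3 of 5 of the kinases and passenger complex, 3 of 7 spindle proteins and 1 of 3 of cyclin B and CDK1. It held neither for TOP2A nor for any of the 4 genes of the central spindle and cytokinesis. The exceptions among replication genes were PCLAF and RRM2.

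The size of the difference between the diets was fitted with limma over the 9888 genes, with 2 samples a diet. For 0 genes, and so for 0% and for no member, was the Benjamini-Hochberg adjusted p under 0.05. Without adjustment, 522 genes (5.28%) and 12 of the 33 members tested had a p under 0.05, and all 12 were lower in the calorie restriction animal. The member with the smallest p was MCM5, 2.73-fold lower (log2 difference -1.45, SE 0.32, limma adjusted p = 0.71). AURKA followed (-1.51, SE 0.37, limma adjusted p = 0.80), then CDC20 (-1.47), MCM7 (-0.70), UBE2C (-1.71) and BUB1 (-1.49). The remaining 6 were CCNA2, DLGAP5, MCM3, CCNB2, TYMS and MCM4, with differences between -1.63 and -0.54. Because each diet is 1 animal whose samples are different conditions, these p-values rest on the spread among samples within 2 animals, and diet and animal cannot be told apart. Without the ad libitum sample 1, a fit in which the single remaining ad libitum sample, the array that stood apart, is assumed to vary like the others called 474 genes (4.79%). Of the 33 members it called 1, or a share under that background, MCM5 (-1.87, SE 0.19, limma adjusted p = 0.019). The count of members with an unadjusted p under 0.05 was 6 in that fit (24.6% of all genes), 18 without the ad libitum sample 2 (8%), 4 without the calorie restriction sample 1 (1.75%) and 14 without the calorie restriction sample 2 (2.22%), and none of the last 3 fits called a gene.

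Other genes of the cell cycle were listed by textbook role. Of 31 measured further replication genes, 2 (6.45%, close to the 6.58% of all genes) were 2-fold lower in the ad libitum sample 2, the clamp loader RFC5 (-1.36) and the fork protector TIPIN (-1.06), and 0 were 2-fold apart in the calorie restriction animal, with medians of 0.14 and 0.035. Of 53 further mitotic genes, 4 (7.55%) were 2-fold lower in the ad libitum sample 2, also close to that background, and 4 (7.55%) were 2-fold higher in the calorie restriction sample 2, against 0.496% of all genes, with medians of -0.31 and 0.33. Here too the mitotic medians lay farther from 0 than the replication medians. UBE2T, a ubiquitin-conjugating enzyme of DNA repair listed with the mitotic genes and the only one of those 2-fold apart that passed the filter, had 6.85 and 5.25 in the ad libitum animal and 4.47 and 5.55 in the other. SPC25, which sits in the complex of NDC80 and NUF2, changed by -1.27 and 1.74, and NCAPG, a condensin subunit, by -1.27 and 0.60.

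The G1 regulators did not share the pattern in their medians, which were 0.098 and -0.035 over 16 genes. Of these, 3 (18.8%) were 2-fold lower in the ad libitum sample 2, against 6.58% of all genes and 19.6% of the members. In the calorie restriction sample 2, 1 (6.25%) was 2-fold higher, against 0.496% of all genes. CCND1, the D-type cyclin that answers growth factors, had 8.58 and 6.13 in the ad libitum animal and 8.22 and 8.53 in the calorie restriction animal, so that the ad libitum sample 2 alone was low, by 5.49-fold. E2F7, a repressor of the E2F family that is itself transcribed in S phase, had 6.46 and 5.33 against 4.35 and 5.39, changes of -1.14 and 1.04. E2F3 was 2-fold lower in the ad libitum animal (-1.01) and changed by -0.046 in the other. Of 19 measured inhibitors and quiescence genes, 0 were 2-fold apart in either animal, and their medians were 0.015 and -0.21.

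Bulk arrays cannot tell fewer dividing cells from less RNA per cell. Markers of the cell types that could hold dividing cells were therefore set beside the members. The 13 endothelial markers had a mean log2 signal of 7.40 and 6.40 in the ad libitum animal and 7.90 and 7.58 in the calorie restriction animal, and 6 of them, among them CDH5 and PECAM1, were 2-fold lower in the ad libitum sample 2. They were thus highest in the calorie restriction sample 1, where the members were lowest. The 7 fibroblast markers ranged from 9.91 to 10.2 and the 10 macrophage markers from 7.35 to 7.87, with no fibroblast marker 2-fold apart in either animal. Of the macrophage markers, 2 were 2-fold higher and 1, CD163 (-1.28), was 2-fold lower in the ad libitum sample 2. Granulosa markers ranged from 7.63 to 7.86 in their mean, in which opposite changes met: 3 of 7 were 2-fold higher and 2 were 2-fold lower in the ad libitum sample 2, from FST at 2.29 to INHBA at -3.42. Means of smooth muscle and pericyte markers ranged from 8.11 to 8.63, those of T and NK cells from 4.25 to 4.52 and of B and plasma cells from 3.92 to 4.11. In their mean, the surface epithelium markers had the order of the members (ad libitum sample 1 highest, calorie restriction sample 1 lowest), at 5.13, 4.75, 4.56 and 4.92. So did the mean of the fibroblast markers, within its narrow range. Most of the surface epithelium markers lay under the filter. Within the surface epithelium list only EPCAM and MUC16, both under the filter, and within the fibroblast list only PDGFRA and DCN had this order. CYB5A of the theca list, past the filter, had it too, at 11.11, 10.69, 10.04 and 10.25. Theca markers had 8.49, 9.87, 8.34 and 7.35, and erythroid markers had 6.63, 6.22, 7.11 and 7.42. The part of any of these cell types in the members' changes was not tested.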

How the data were processed

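The values are log2 signals per probe set that the authors deposited, made with Affymetrix Power Tools and RMA per the submitters' processing notes; no version of either is given in the sources read. Without scanner files, detection of single probe sets is unknown. Human-designed probes can bind vervet RNA less well, which touches differences within a gene less than levels.

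Of 54675 probe sets, 62 controls were left out, 41091 had 1 symbol by the platform annotation and were used, 1801 had several and 11721 had none here. The brightest probe set stood for a gene. All 51 member symbols are in the RefSeq vervet annotation. Fits used limma 3.58.1 in R 4.3.3 (eBayes with a trend, Benjamini-Hochberg). The code was run on simulated data with a spread common to all genes, which does not measure the power of the fits on these data. The number of arrays limits all precision.

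The members and lists were chosen with earlier results of these data known. Named were members 2-fold apart in either animal, the 2 brightest of each role and, of other cell cycle lists, genes 2-fold apart, up to 8 per list and animal; further members and genes were named after their values were seen. Alternatives were other probe set rules, cyclic loess, other filters, a 1.5-fold threshold, no trend, sample number as a block, and leaving out samples.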

Additional observations from a re-analysis of the deposited data

Results flagged for a closer look

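The changes from sample 1 to sample 2 went in opposite directions by 2-fold or more in the 2 animals for 6 members, and the difference between the animals was not tested, since each change rests on 1 array per sample. The change in the calorie restriction animal minus that in the ad libitum animal was 3.69 on the log2 scale for ANLN, 2.97 for RRM2, 2.89 for PCLAF, 2.75 for KIF20A, 2.70 for ASPM and 2.48 for PRC1. Of the 6, KIF20A and ASPM had means under the level filter.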

How the results depend on the processing

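Under cyclic loess, each count and median kept its side and moved by less than 1.5 times, and all 10 lower and 15 higher members stayed past 2-fold. With the mean of all probe sets, 5 members were 2-fold lower in the ad libitum animal, the replication median there was -0.18, and the replication median minus the mitotic was 0.14 there and -0.37 in the calorie restriction animal. Among the 39 members with a more specific probe set, 3 were lower in the ad libitum and 9 higher in the calorie restriction animal, the mitotic medians were -0.18 and 0.52, the gaps to the replication medians were 0.11 and -0.26, and ASPM changed by -0.20 in the calorie restriction animal. With only members past the level filter, 6 were lower in the ad libitum animal, where the replication median was -0.024. At 1.5-fold, 19 were lower and 1 higher in the ad libitum animal, and 26 were higher in the other. Shares over all genes were counted only at 2-fold, with the brightest probe sets and the values as deposited. The member counts at 1.5-fold, with other probe set rules and under loess therefore have no background beside them. Between diets, no level filter, a filter at the 75th percentile, no trend, loess and the mean of probe sets each called 0 genes; leaving out 1 sample gave 0 to 474 genes and 0 to 1 member. With the sample number as a replicate block 0 genes were called, and 506 of 9888 genes and 9 of 33 members had an unadjusted limma p under 0.05. The changes of the 2 animals correlated at -0.27 over the 9888 genes, and the labels do not say what same-numbered samples share. Crossing the numbers, an alternative added after seeing the data, also called 0, with 809 genes and 24 members at an unadjusted p under 0.05. The changes within an animal have no fit without either of its samples.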
